A study of Mus musculus with 6 samples.

Results

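Glycosyltransferases and sulfotransferases build and decorate the sugar chains of glycoproteins, glycolipids and proteoglycans. The set described here held 57 of the 11162 genes listed in an RNA sequencing table of naive CD8 T cells. Members were chosen by symbol, as every listed gene of the families St3gal, St6gal, St6galnac, St8sia, Galnt, C1galt1, Gcnt, Mgat, B3galt, B4galt, B3gnt, Fut, Chst, Ndst, Hs2st, Hs3st and Hs6st, together with Ust. By reaction they fell into 13 sialyltransferases, 11 polypeptide N-acetylgalactosaminyltransferases, 3 O-glycan core enzymes, 5 N-glycan branching enzymes, 6 galactosyltransferases, 5 enzymes of the B3gnt family, 3 fucosyltransferases, 6 genes of the Chst family with Ust, and 5 heparan sulfate sulfotransferases.

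The cells came from spleens of mice carrying the transgene Tg(Nr4a1-EGFP)GY139Gsat, named Nur77-GFP, in which a fluorescent protein is made under Nr4a1 control. Every sample was sorted as CD8+ CD44lo CD62Lhi Qa2hi OT-I cells, where OT-I is a transgenic T-cell receptor of a single specificity. The labels set the groups apart by reporter brightness only, with 3 Nur77-GFPhi samples (GFP-hi) and 3 Nur77-GFPlo samples (GFP-lo) from the same reporter genotype. Replicate numbers used here follow the order of the samples within each group and are not given by the labels. The labels give no age, sex or treatment and do not say whether samples came from separate mice or whether a GFP-hi and a GFP-lo sample shared a mouse, so p-values measure only the spread between these samples, which may be technical. The comparison asks which transcripts differ between naive cells that carry strong and weak traces of receptor signalling.

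Glycans are assembled stepwise in the endoplasmic reticulum and Golgi. Mucin-type O-glycans start with a sugar placed by a Galnt enzyme and are extended to the core 1 structure by C1galt1. N-glycans are branched by Mgat enzymes and extended by galactosyltransferases, and both kinds of chain are commonly capped by sialic acid. Glycosaminoglycans such as heparan, chondroitin and dermatan sulfate are long chains on proteoglycans that sulfotransferases modify at defined positions. On T cells, sialylation of O-glycans on CD8 and CD43, branching of N-glycans on the receptor and fucosylated selectin ligands are known points at which these enzymes act.

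Depth was estimated as the value at which low RPKM values came closest to whole reads, and ran from 26170000 to 35940000 reads per library. RPKM are reads per kilobase of gene scaled to library depth, so 1 RPKM over 1 kilobase rested on 26.17 to 35.94 reads. The T-cell markers Cd3d, Cd3e, Cd3g, Cd8a and Cd8b1 were all listed, with a summed 1428 to 1531 RPKM in GFP-hi against 1398 to 1454 RPKM in GFP-lo libraries. Of 4 CD4 T-cell markers 2 were listed, Cd40lg, called lower in GFP-hi, and Izumo1r, called higher, with a summed 17.2 to 26.2 RPKM against 36.3 to 47.8 RPKM; Cd4 and Foxp3 have no listed value. The other lists had few listed genes and no call, with sums in GFP-hi against GFP-lo of 12.5 to 14.2 against 10.9 to 11.3 RPKM for 2 of 6 B-cell markers and 0.16 to 0.366 against 0.238 to 0.431 RPKM for 1 of 8 myeloid markers. They were 0.216 to 0.469 against 0.479 to 0.726 RPKM for 1 of 4 NK-cell markers and 0.047 to 1.94 against 0.393 to 1.48 RPKM for 1 of 5 erythroid markers. Nr4a1 overlapped between the groups, at 37.0 to 90.9 RPKM in GFP-hi against 33.8 to 84.9 RPKM in GFP-lo, as did the reporter transcript, at 214 to 262 and 191 to 216 RPKM, so neither transcript separated the groups. Replicate 2 of each group stood apart in the heat-shock gene Hspa1a, at 1100 and 1234 RPKM against 152 to 235 RPKM in the other 4 libraries. Nasal receptor genes, which T cells are not known to use, had a median of 0.037 and 0.038 RPKM in GFP-hi replicate 2 and GFP-lo replicate 1 and of 0.263 to 0.583 RPKM in the other 4. Cell cycle genes were higher in GFP-hi, with 7 of 7 tested called higher and a summed 29.3 to 36.7 RPKM against 7.28 to 8.05 RPKM. The list of memory and effector CD8 genes summed to 155 to 171 RPKM in GFP-hi against 168 to 188 RPKM in GFP-lo, with 2 genes called higher and 2 lower of 9. The list of dissociation and heat-shock genes summed to 2658 to 6547 RPKM in GFP-hi against 3497 to 7390 RPKM in GFP-lo, with none of 13 genes called and a median log2 fold change of -0.30. The part of these lists in the results below was not tested.

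Ust fell and St3gal1 rose in GFP-hi cells, and the other 45 tested members did not pass the test. Of the 57 members, 47 had a mean of at least 1 RPKM and were tested. The 2 that passed (limma on log2(RPKM + 1), Benjamini-Hochberg adjusted p under 0.05 over all genes tested) made up 4.26% of them, and 3.95% of the 9351 genes tested passed. The member share was thus close to the background. Fold changes are GFP-hi over GFP-lo on the log2(RPKM + 1) scale, which understates the change of weakly expressed genes. Their median over the tested members was -0.01, with 23 positive and 24 negative, and that over all genes tested was 0.02. The median size without sign was 0.084 in the members and 0.086 in all genes tested. At an unadjusted p under 0.05 there were 11 members (23.4%), 5 higher and 6 lower, against 20.2% of all genes tested. All 45 members without a call had a 95% interval inside 1 on the log2 scale in either direction, 44 had it inside 0.5 and 18 inside 0.25. The 57 RPKM values of a library summed to 601 to 605 in GFP-hi and 597 to 617 in GFP-lo.

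**Figure D1:**
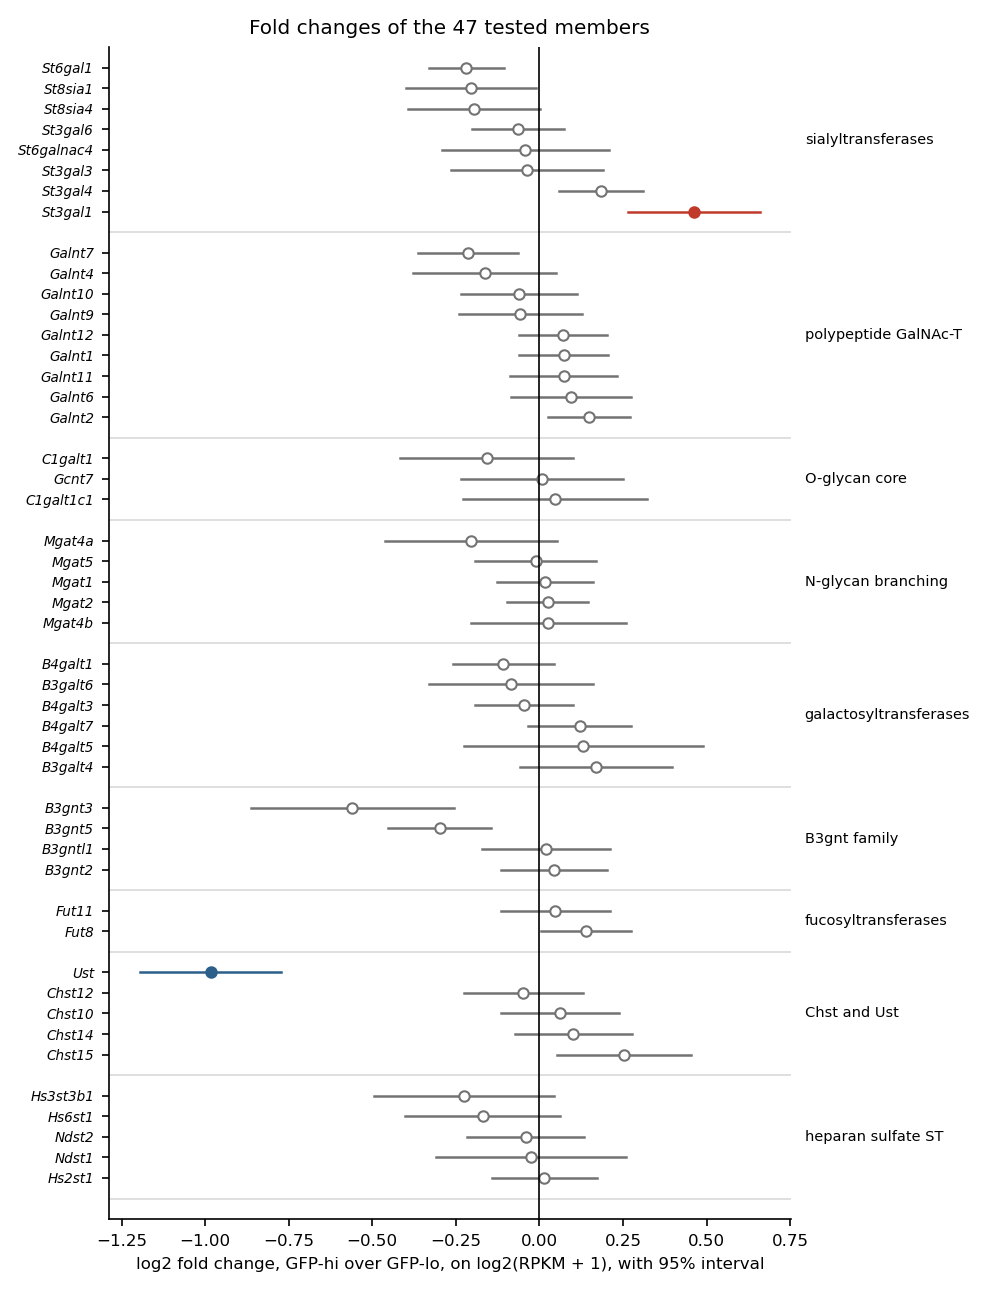
Log2 fold changes of the 47 tested members (GFP-hi over GFP-lo, on log2(RPKM + 1)), with 95% intervals from limma, grouped by reaction class; filled points passed an adjusted p under 0.05. Ust, at -0.98, and St3gal1 at 0.46 are the filled points, and B3gnt3 at -0.56 lies between them in size without a call.

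Members spanned a wide range of levels. Galnt6 was the most abundant, with a mean of 69.5 RPKM over the 6 libraries, above 96.6% of all listed genes. It was followed by Galnt10 (50.5), Mgat2 (49.6), B4galt1 (47.1) and Galnt2 (38.7). In all, 9 members had a mean of at least 20 RPKM and 30 a mean of at least 5 RPKM. The highest level of each class, a quantity per length and so comparable between genes, was held by St6gal1 among sialyltransferases (27.9 RPKM), C1galt1 among O-glycan core enzymes (11.5), B3gnt2 in its family (13.3), Fut8 among fucosyltransferases (5.96), Chst12 in its family (11.6) and Hs6st1 among heparan sulfate sulfotransferases (14.4). Ust, at 4.22 RPKM, ranked 33 and St3gal1, at 6.76 RPKM, ranked 23 among the 57 members. The levels of Galnt2 and B3gnt2 are uncertain, since gene models on the same strand share 90.0% and 58.6% of their exon bases.

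**Figure D2:**
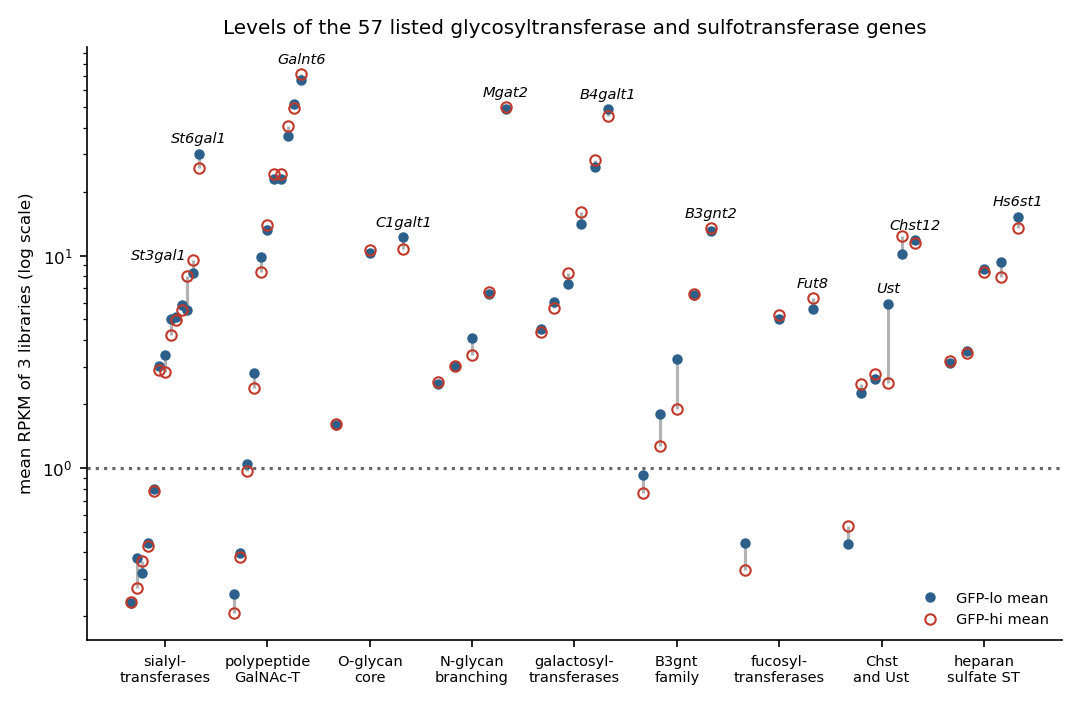
Mean RPKM of 3 libraries (log scale) for each of the 57 members, by reaction class, with filled blue points for GFP-lo, open red points for GFP-hi and a line joining the 2 means of a gene; the dotted line marks 1 RPKM. Levels run from Galnt13, at a mean of 0.231 RPKM over all libraries, to Galnt6 at 69.5 RPKM, and Ust and B3gnt3 have the longest lines among members above 1 RPKM.

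Sulfotransferases of chondroitin and dermatan sulfate held the largest difference of the set. Ust (Entrez 338362) encodes uronyl 2-sulfotransferase, which places sulfate on uronic acid residues of dermatan and chondroitin sulfate. It had 2.80, 2.05 and 2.72 RPKM in GFP-hi replicates 1 to 3 and 5.75, 5.93 and 6.11 RPKM in GFP-lo replicates 1 to 3. All GFP-hi libraries lay far below all GFP-lo libraries, and the GFP-hi library with the lowest value was replicate 2. Mean levels of 2.52 ± 0.413 RPKM in GFP-hi against 5.93 ± 0.178 RPKM in GFP-lo (SD, n = 3 each) put GFP-hi 57.5% lower. On the log2 scale the change was -0.98 ± 0.092 (standard error; limma, adjusted p = 0.0019; 95% interval from -1.20 to -0.77), and 1.49% of all genes tested were called lower. In bulk samples, fewer cells that express a gene and less RNA per cell cannot be told apart. The change was -0.88 in the 4 libraries with lower heat-shock genes and -0.90 in the 4 with higher nasal receptor values, and it passed the threshold in each of 18 alternative fits in which Ust was tested, with adjusted p values from 0.00013 to 0.015.

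The Ust gene spans bases 8204756 to 8518825 of chromosome 10 on the minus strand (GRCm38, the build called mm10), with 2 transcripts in GENCODE M21 and no exon shared with another gene. RefSeq windows were found by gene ID for 46 of the 57 members, each cut to the 250 bases before a start, and St3gal1 was not among them. The 250 bases before the Ust start, chr10:8518826-8519075 on the minus strand (RefSeq, GRCm38.p6), are shown because Ust was the member that fell, with each CG pair in capitals.
Ust: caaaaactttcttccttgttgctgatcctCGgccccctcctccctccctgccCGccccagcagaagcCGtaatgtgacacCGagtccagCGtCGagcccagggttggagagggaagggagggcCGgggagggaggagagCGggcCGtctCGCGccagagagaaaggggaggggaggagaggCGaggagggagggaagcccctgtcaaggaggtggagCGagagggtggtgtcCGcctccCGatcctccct
This window held 15 CG pairs and was 66.4% G or C. The median was 14.5 CG pairs over 60 windows of the 46 members and 16 over 11438 windows of listed genes. The letters AAAGGTCA (bound by Nur77 and its relatives), TGACTCA (bound by AP-1 factors) and CACGTG (an E-box) were searched on both strands, and none of the 3 contains another. None of them lay in the Ust window. Over the 60 member windows AAAGGTCA and TGACTCA had 0 matches and CACGTG had 3, in Chst14, St6galnac3 and Galnt9. Among windows of listed genes the shares were 0.927%, 2.98% and 8.52%.

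The remaining members of this class did not pass. Chst15, which adds a second sulfate to chondroitin units that already carry 1, had 13.5, 11.0 and 12.7 RPKM in GFP-hi against 11.1, 9.64 and 9.79 RPKM in GFP-lo. GFP-hi replicate 2 lay just below GFP-lo replicate 1, so the groups overlapped. The log2 fold change was 0.25 (standard error 0.087, limma adjusted p = 0.16). It was 0.39 in the 4 libraries of higher nasal receptor values (limma, adjusted p = 0.021) and 0.33 with array quality weights (limma, adjusted p = 0.0079). Exons of Chst15 overlap those of the antisense gene Gm10584 over 17.9% of their length, and the reads of the 2 strands cannot be told apart. Chst12, which sulfates chondroitin, had a log2 fold change of -0.05, Chst14, which sulfates dermatan, 0.10, and Chst10, which makes the HNK-1 epitope, 0.06, all with intervals that spanned 0.

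Heparan sulfate sulfotransferases were without a call, and 4 of the 5 had a negative fold change. Hs3st3b1, which adds the rare sulfate at the 3-position, had 7.94, 9.25 and 6.56 RPKM in GFP-hi against 10.3, 9.50 and 8.35 RPKM in GFP-lo, with overlapping groups and a log2 fold change of -0.23 (95% interval from -0.49 to 0.04). Hs6st1, the 6-position enzyme, had 14.6, 11.2 and 14.6 against 14.3, 15.6 and 15.8 RPKM, and its log2 fold change was -0.17 (-0.40 to 0.06). GFP-hi replicate 2 was the lowest library for Hs6st1, and the other GFP-hi libraries lay above GFP-lo replicate 1. Without 1 library the Hs6st1 fold change ran from -0.23 to -0.05, and it was smallest in size without GFP-hi replicate 2. In the 4 libraries with lower heat-shock genes it was -0.03. Ndst1 and Ndst2, which start sulfation of the chain, and Hs2st1 stayed between -0.04 and 0.01. The summed level of the 5 genes was 34.1 to 38.4 RPKM in GFP-hi against 39.4 to 40.5 RPKM in GFP-lo. These sums did not overlap although each single gene did, and Hs3st3b1 and Hs6st1 had the largest fold changes. Sums were also apart for sialyltransferases, lower in GFP-hi, and for fucosyltransferases, higher at 11.5 to 12.2 against 11.0 to 11.3 RPKM. Sums of the other classes overlapped. Among all single genes tested, 26.9% had groups that did not overlap, and no such share was worked out for sums of genes.

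Sialyltransferases contained the only called rise. St3gal1 (Entrez 20442; chromosome 15, bases 67102875 to 67176830, minus strand, GRCm38) encodes the enzyme that caps core 1 O-glycans with sialic acid. It had 8.22, 8.49 and 7.26 RPKM in GFP-hi against 6.04, 5.67 and 4.89 RPKM in GFP-lo. The lowest GFP-hi library, replicate 3, was above the highest GFP-lo library, replicate 1. Mean levels were 7.99 ± 0.647 RPKM in GFP-hi against 5.53 ± 0.585 RPKM in GFP-lo (SD, n = 3 each). On the log2 scale the change was 0.46 ± 0.086 (standard error; limma, adjusted p = 0.026; 95% interval from 0.26 to 0.66), and 2.46% of all genes tested were called higher. Without GFP-hi replicate 1 the change was 0.44 (limma, adjusted p = 0.094) and without GFP-hi replicate 2 it was 0.42 (adjusted p = 0.061). Without GFP-lo replicate 2 it was 0.48 (limma, adjusted p = 0.085) and without GFP-lo replicate 3 it was 0.39 (adjusted p = 0.082). In the 4 libraries with lower heat-shock genes it was 0.44 (limma, adjusted p = 0.15). The size thus stayed near that with all libraries while the call was lost, and calls among all genes fell from 369 to 101 in those 4 libraries.

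St6gal1, the most abundant sialyltransferase, puts sialic acid on the galactose of N-glycans and so makes ligands of CD22. It had 25.8, 26.0 and 25.4 RPKM in GFP-hi against 30.4, 30.7 and 29.2 RPKM in GFP-lo. The groups did not overlap and lay close together within themselves. Its log2 change, -0.22 ± 0.049 (standard error; limma, adjusted p = 0.052), missed the threshold. It passed in 5 of 19 alternative fits, with limma adjusted p values from 0.0068 to 0.20 and fold changes from -0.25 to -0.21, and in none of the 6 fits that leave out 1 library. St3gal4, which caps lactosamine chains including those of selectin ligands, had 9.15, 9.59 and 9.94 against 8.26, 8.30 and 8.31 RPKM, also without overlap (log2 fold change 0.18, limma adjusted p = 0.11). Exons of St3gal4 overlap an antisense transcript over 14.1% of their length.

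St8sia1, which makes the ganglioside GD3, and St8sia4, a polysialyltransferase, had log2 fold changes of -0.21 (limma, adjusted p = 0.23) and -0.20 (adjusted p = 0.25). Their groups overlapped, since GFP-lo replicate 1 lay within the GFP-hi range of each. St3gal3, St6galnac4 and St3gal6, whose exons overlap those of Dcbld2 on the other strand over 26.0% of their length, lay between -0.06 and -0.04. The class thus had 2 positive and 6 negative fold changes, with a median of -0.05. Its summed level was 65.7 to 65.9 RPKM in GFP-hi against 67.9 to 69.2 RPKM in GFP-lo, with St6gal1 as the largest part. Across the 57 members, 9 of 47 tested genes (19.1%) had groups that did not overlap, 4 higher and 5 lower, against 26.9% of all genes tested (17.1% higher and 9.84% lower).

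**Figure D3:**
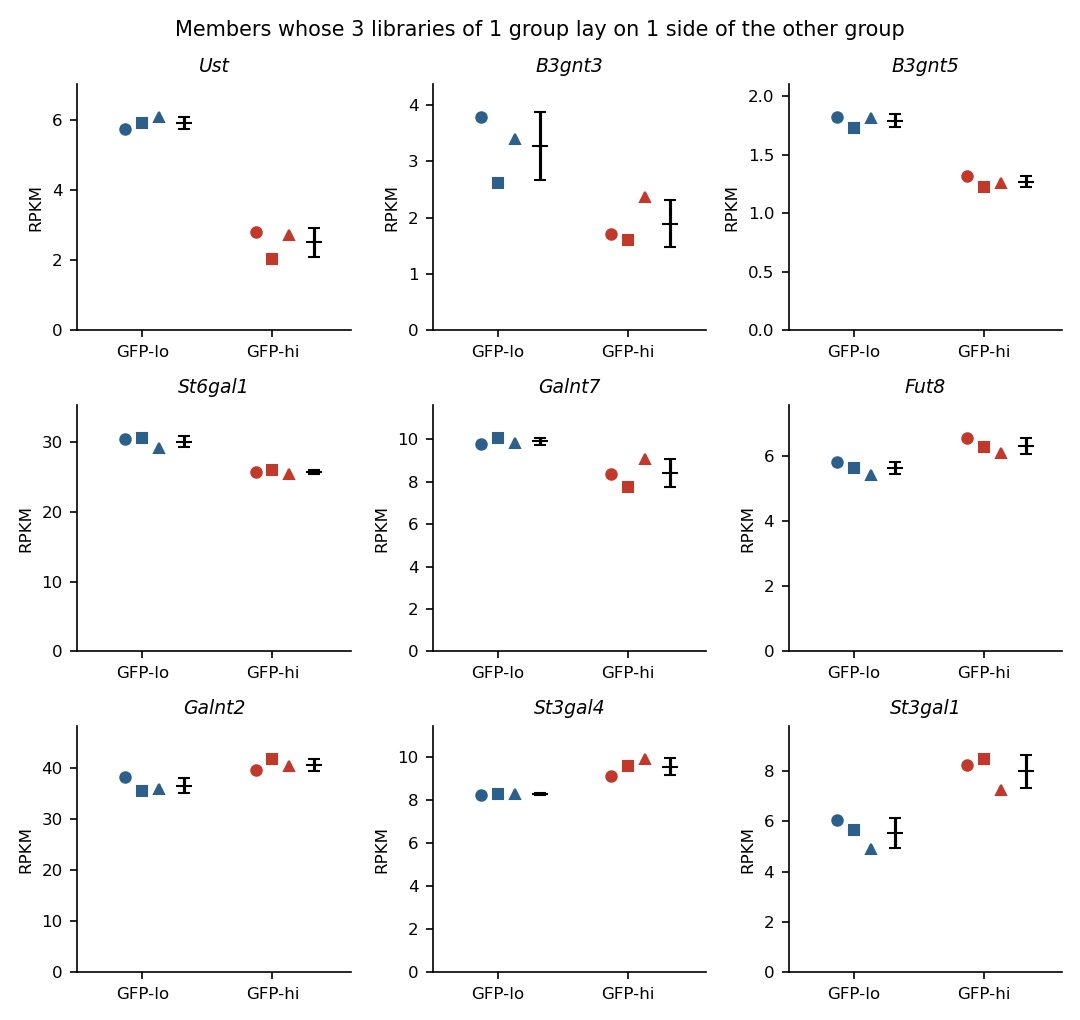
RPKM of the 9 tested members whose groups did not overlap (circle, square and triangle for replicates 1, 2 and 3; bars show the mean and SD of 3 libraries), with GFP-lo in blue and GFP-hi in red and each vertical axis starting at 0. Ust and St3gal1 are the called genes, and the narrow groups of St6gal1 and B3gnt5 are seen beside the wide ones of B3gnt3.

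The B3gnt family extends chains with N-acetylglucosamine, and 2 of its 4 tested members lay just above the threshold, in both cases lower in GFP-hi. B3gnt3, which extends core 1 O-glycans, had 1.70, 1.61 and 2.37 RPKM in GFP-hi against 3.79, 2.62 and 3.39 RPKM in GFP-lo. The groups did not overlap but each was wide, with means of 1.89 ± 0.413 against 3.26 ± 0.597 RPKM (SD, n = 3 each). Its log2 fold change was -0.56 (standard error 0.132, limma adjusted p = 0.059), the second largest of the set in size. Its single transcript of 3055 bases corresponds to 148 to 213 reads in GFP-hi and 227 to 416 reads in GFP-lo libraries. It passed in 3 of 18 alternative fits, with limma adjusted p values from 0.020 to 0.17, and with array quality weights the change was -0.35.

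B3gnt5 makes the first step of the lacto-series glycolipids. It had 1.32, 1.23 and 1.26 RPKM in GFP-hi against 1.83, 1.73 and 1.82 RPKM in GFP-lo. The spread within each group was much smaller than the gap between them. The log2 fold change was -0.30 (standard error 0.067, limma adjusted p = 0.053), and it passed in 6 of 18 alternative fits, with adjusted p values from 0.012 to 0.20. None of the fits that leave out 1 library was among those it passed. B3gnt2, the main enzyme of polylactosamine chains, had a log2 fold change of 0.04, and its sign turned without GFP-hi replicate 2 (-0.01). Most of its exons are shared with the gene model Gm28048, so its level is uncertain. B3gntl1 had a fold change of 0.02.

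The enzymes that start and shape mucin-type O-glycans included the most abundant members, and none was called. Of the 9 Galnt genes tested, 5 had positive and 4 negative fold changes, none was called, and the median was 0.07. Galnt6 had 74.3, 71.9 and 68.8 RPKM in GFP-hi against 74.9, 65.7 and 61.2 RPKM in GFP-lo (log2 fold change 0.09). Galnt2 had 39.7, 41.9 and 40.4 against 38.3, 35.6 and 36.0 RPKM, without overlap (0.15, limma adjusted p = 0.18). The gene model Gm20388 shares 90.0% of the exon bases of Galnt2 on the same strand, so the level of Galnt2 is uncertain. Galnt7, which acts on peptides that already carry a sugar, had 8.38, 7.77 and 9.09 against 9.79, 10.1 and 9.82 RPKM, without overlap and in the opposite direction (-0.21, limma adjusted p = 0.12). Galnt4 had the next largest size, at -0.16, and its groups overlapped. Its exons share 8.25% of their bases with Poc1b on the same strand.

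C1galt1, which makes core 1, had 10.3, 10.1 and 11.8 RPKM in GFP-hi against 9.99, 13.7 and 12.9 RPKM in GFP-lo, and its chaperone C1galt1c1 had 9.82, 12.6 and 9.61 against 8.93, 11.7 and 10.2 RPKM. The groups overlapped for both genes, and C1galt1c1 was highest in replicate 2 of each group. Their log2 fold changes were -0.16 (95% interval from -0.42 to 0.10) and 0.05 (-0.23 to 0.32), and that of C1galt1c1 changed sign in 4 of 19 alternative fits. Gcnt7, the only listed gene of the core-branching Gcnt family, had a fold change of 0.0076.

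N-glycan branching enzymes were without a call. Mgat2, which opens the second antenna, was held between 47.8 and 51.9 RPKM in all 6 libraries, and its log2 fold change of 0.02 had a 95% interval from -0.10 to 0.15. Mgat1, which starts complex chains, had 0.02 (-0.13 to 0.16). Mgat5, whose branches carry galectin ligands and restrain receptor clustering, had 3.35, 2.78 and 2.89 against 2.84, 3.02 and 3.24 RPKM, a fold change of -0.01 (-0.19 to 0.17). Mgat4a had the largest size of the class, at -0.21 (-0.46 to 0.05), with GFP-lo replicate 3 as its highest library, and Mgat4b had 0.03.

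Galactosyltransferases were without a call, with 3 positive and 3 negative fold changes. B4galt1, the main enzyme that extends N-glycan branches, had 43.7, 43.2 and 49.0 RPKM in GFP-hi against 49.2, 46.7 and 50.5 RPKM in GFP-lo (log2 fold change -0.11, 95% interval from -0.26 to 0.04). B3galt4, which makes gangliosides of the GM1 type, had 14.4, 19.0 and 14.9 against 13.5, 14.2 and 14.6 RPKM. Its fold change of 0.17 was 0.05 without GFP-hi replicate 2, the highest library. B4galt5, which makes lactosylceramide, had 8.27, 6.16 and 10.4 against 6.73, 7.15 and 8.17 RPKM, a fold change of 0.13 that turned to -0.03 without GFP-hi replicate 3. B4galt7 and B3galt6, which build the linker of glycosaminoglycans to protein, had 0.12 and -0.08. Among fucosyltransferases Fut8, which adds the core fucose of N-glycans, had 6.55, 6.26 and 6.07 against 5.81, 5.63 and 5.42 RPKM, without overlap (0.14, limma adjusted p = 0.23), and Fut11 had 0.05.

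The 10 members under 1 RPKM were not tested, and their groups overlapped in every case. The highest of them was B3gnt9, with a mean of 0.848 RPKM, and the lowest tested member was Galnt9, at 1.00 RPKM. Fut7, which completes selectin ligands, had 0.327, 0.355 and 0.310 RPKM in GFP-hi against 0.600, 0.341 and 0.384 RPKM in GFP-lo. Chst1, a galactose sulfotransferase, differed between libraries rather than between groups. It had 0.839, 0 and 0.760 RPKM in GFP-hi against 0.052, 0.053 and 1.21 RPKM in GFP-lo, where its transcript of 2680 bases corresponds to 0 to 85 reads. Galnt14 had 0.049 and 0.032 RPKM in GFP-hi replicate 2 and GFP-lo replicate 1, the libraries with the lowest nasal receptor values, and 0.447 to 0.645 RPKM in the other 4. Galnt13 had 0.020 and 0.072 RPKM in those libraries and 0.146 to 0.544 RPKM in the other 4. The part of whatever raised the nasal receptor values in these levels was not tested.

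**Figure D4:**
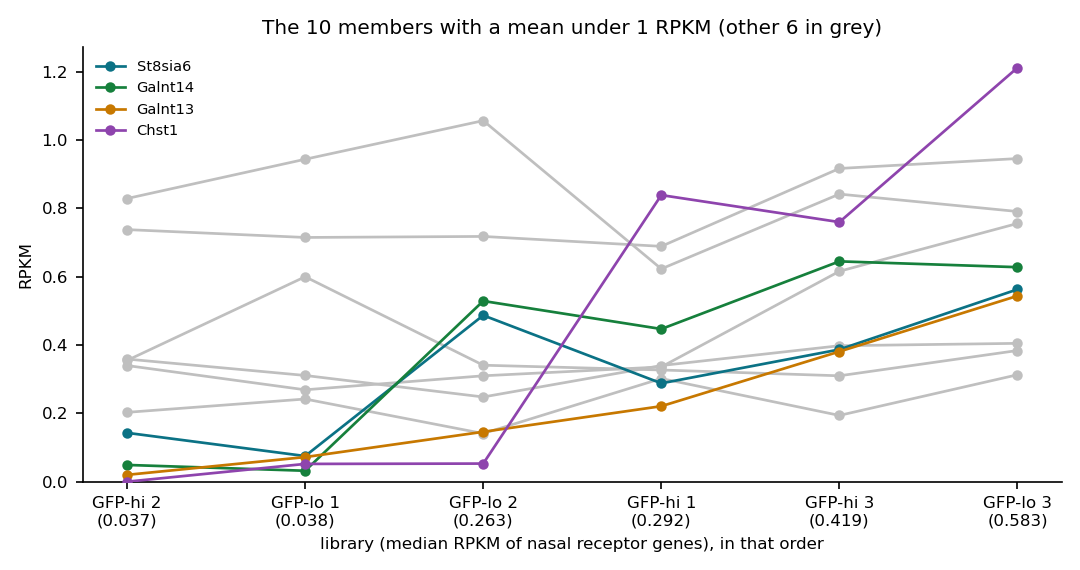
RPKM of the 10 members with a mean under 1 RPKM in each library, ordered by the median RPKM of 41 nasal receptor genes (given below each name); lines join the values of a gene and do not stand for a course. Galnt13, Galnt14, St8sia6 and Chst1 are near 0.1 RPKM or lower in the leftmost libraries and are highest in libraries further to the right.

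Further genes of glycan metabolism were compared from 6 lists that hold no member. The lists cover sialic acid, sulfate donors and sulfatases, glycosaminoglycan backbones, N-glycan trimming, nucleotide sugars, and glycan carriers and readers. Of 75 genes tested, 1 was higher and 4 were lower (6.67% called, against 3.95% of all genes tested), with a median of -0.0021. Lgals1, which encodes the galactoside-binding lectin galectin-1, was the gene that rose. It had 59.3, 62.9 and 55.5 RPKM in GFP-hi against 28.5, 30.3 and 26.2 RPKM in GFP-lo, which is 1.04 ± 0.072 on the log2 scale (standard error; limma, adjusted p = 0.00079), and it passed in each of 19 alternative fits. The other 11 tested carriers and readers had no call, among them Cd8b1, the most abundant with 791 to 836 RPKM in GFP-hi against 785 to 839 RPKM in GFP-lo, and Selplg, the selectin ligand PSGL-1 (0.0071).

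The 4 genes that were lower came from 3 of the lists. Dse, the epimerase that turns glucuronic into iduronic acid in dermatan sulfate, had 11.0, 10.9 and 10.8 RPKM in GFP-hi against 14.2, 13.5 and 13.7 RPKM in GFP-lo (log2 fold change -0.31, standard error 0.051, limma adjusted p = 0.016). Arsb, a lysosomal sulfatase of N-acetylgalactosamine, had 3.35, 3.43 and 3.98 against 4.99, 5.29 and 5.28 RPKM (-0.43, standard error 0.072, limma adjusted p = 0.017). Ids, the lysosomal enzyme that removes the sulfate that sits on iduronic acid, had 9.06, 9.14 and 8.85 against 12.8, 11.2 and 10.7 RPKM (-0.33, standard error 0.071, limma adjusted p = 0.048). The fourth, Fpgt, an enzyme of fucose salvage, had 4.18, 4.08 and 4.60 against 6.54, 5.64 and 6.32 RPKM (-0.44, standard error 0.073, limma adjusted p = 0.017). The groups of all 4 genes were separate. With all libraries 4 were called lower, and 0 were when GFP-hi replicate 1 or GFP-lo replicate 3 was left out. None was called either in the 4 libraries with lower heat-shock genes, where the fold changes were about as large: -0.32 for Dse (limma, adjusted p = 0.082), -0.40 for Arsb (0.13), -0.35 for Ids (0.16) and -0.46 for Fpgt (0.062).

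Other genes of these lists did not pass. In the backbone list 13 genes were tested and Dse alone was called; Xylt2, the most abundant and a starter of the chains, had -0.04 and Chsy1, a chondroitin synthase, 0.04. Galns, a lysosomal sulfatase of chondroitin and keratan sulfate singled out after its values were seen, had 8.88, 8.82 and 8.08 RPKM in GFP-hi against 7.68, 6.53 and 6.70 RPKM in GFP-lo, without overlap (0.27, limma adjusted p = 0.089). Papss1, which makes the sulfate donor, had a mean of 8.68 RPKM in GFP-hi against 7.15 RPKM in GFP-lo (0.24, limma adjusted p = 0.13), and Slc26a11, an anion transporter and the most abundant gene of its list, had 0.05. No gene was called among 10 of sialic acid metabolism, where the sialidase Neu1 was the most abundant (-0.07), or among 8 of N-glycan trimming, led by Ganab, a subunit of glucosidase II (0.02). In the nucleotide sugar list Fpgt was the only call of 20, and galactokinase, Galk1, was the most abundant gene (0.11).

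**Figure D5:**
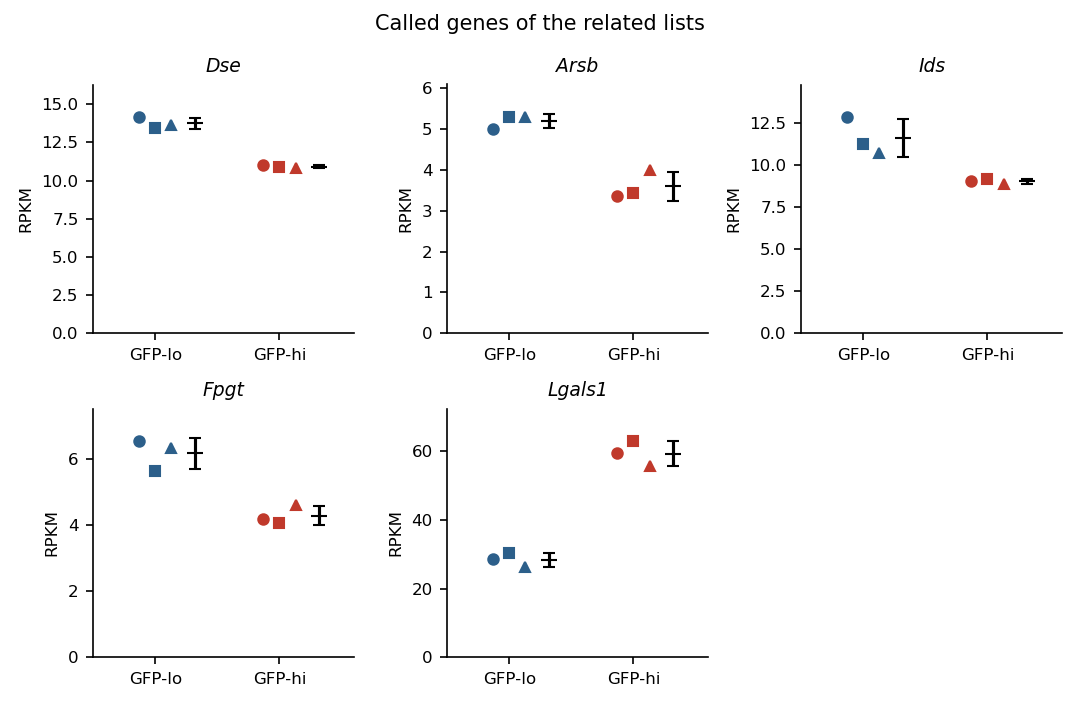
RPKM of the 5 called genes of the related lists by group (circle, square and triangle for replicates 1, 2 and 3; bars show the mean and SD of 3 libraries), each vertical axis starting at 0. Dse, Arsb, Ids and Fpgt lie lower in all 3 GFP-hi libraries, and Lgals1 lies higher, at 55.5 to 62.9 RPKM against 26.2 to 30.3 RPKM.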

How the data were processed

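Values were RPKM deposited by the authors in 1 table, with 1 column per sample named by its title. Per the labels' protocols, sorted cells were lysed and frozen, and libraries were made from SMART-seq v4 cDNA with Nextera XT. Per the submitters' processing notes, reads were aligned with STAR to mm10; the read counter, the annotation and the rule for listing genes are not given in the sources used here. Symbols of 15 genes that were missing or had become dates were restored by Entrez ID.

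Genes with a mean of at least 1 RPKM were tested (9351 of 11162) on log2(RPKM + 1) with limma 3.58.1 in R 4.3.3 (eBayes with trend, no covariate, two-sided, Benjamini-Hochberg). The fit was also run on simulated data, with every gene and library drawn independently. Such data hold no differences shared between libraries, such as those in heat-shock genes, so they cannot show how these affect the calls. Depth was estimated from 723 genes that have 1 transcript in GENCODE M21, as the depth that brought their low values closest to whole reads. At that depth, 88.3% to 92.5% of the 40 to 80 values used per library were whole to within 0.1. The depth was chosen for this closeness, so the share is no independent check. The score of closeness was 7.32 to 11.19, and at best 2.98 to 3.82 with gene lengths exchanged.

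Members, classes, lists, the naming rule and alternatives were chosen with earlier results of these data known. Named members are those called and, per class, the most abundant and the 2 with the largest fold change; members in further sentences, such as Mgat5 and Fut7, were added after their values were seen. Alternatives changed pseudocount (0.1, 0.5), filter (none, 5 RPKM), scaling, variance model and samples; 3 that restrict or adjust for libraries that stand apart were chosen after seeing the data. Figures used matplotlib 3.10.9.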

Additional observations from a re-analysis of the deposited data

How the results depend on the processing

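No paired analysis was run, because the labels name no pairs and the replicate numbers used here only follow sample order. Samples of the same number were close in Nr4a1, at 56.6, 90.9 and 37.0 RPKM in GFP-hi against 63.1, 84.9 and 33.8 RPKM in GFP-lo. A fit with these numbers as pairs could change standard errors and calls, which was not tested. Ust kept its direction and call in all 18 fits that tested it; St3gal1 kept its direction in 19 and its call in 14. The number of members called higher (1) and lower (1) became 5 and 6 with array quality weights, which called 783 higher and 499 lower of all genes. It was 2 higher in the 4 libraries of higher nasal receptor values (264 higher of all genes), and 0 higher in the 4 with lower heat-shock genes (52 and 49 of all genes). Members called lower numbered 2 with median centring (144 lower of all genes) and without trend (145), 3 with quantile normalization (175), trimmed mean of M values (183) and robust eBayes (156), 4 with the heat-shock covariate (522 and 268 of all genes), and 0 with a mean of at least 5 RPKM (119 and 83), which left Ust untested. Without 1 library the counts ran from 0 to 1 higher and 1 to 2 lower, and from 71 to 187 higher and 59 to 128 lower of all genes (230 and 139 with all 6). The share of higher calls among all genes was 62.3%, and 52.1% with trimmed mean of M values scaling.

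Signs turned in at least 1 alternative for 19 of the 47 tested members, none of them called in any fit that turned it, and the cause was not tested. In 12 of them, B3galt6, B3gntl1, Galnt10, Galnt11, Gcnt7, Hs2st1, Mgat1, Mgat5, Ndst1, Ndst2, St3gal3 and St6galnac4, the size was at most 0.084 with all libraries and at most 0.13 after turning. The other 7 are given singly, and B4galt5 was the largest of them with all libraries (0.13). Of these 7, those that turned with array quality weights were C1galt1c1 (-0.12), Fut11 (-0.0096) and Mgat2 (-0.016). In the 4 libraries of higher nasal receptor values they were C1galt1c1 (-0.16), Fut11 (-0.041) and Mgat2 (-0.023). Mgat2 was -0.0037 with trimmed mean of M values, B3gnt2 -0.0031 in the 4 libraries with lower heat-shock genes and Mgat4b -0.0023 with the heat-shock covariate. Without 1 library, B3gnt2 ran from -0.014 to 0.074, B4galt5 from -0.031 to 0.31, C1galt1c1 from -0.068 to 0.14, Chst12 from -0.11 to 0.010, Fut11 from -0.00093 to 0.080, Mgat2 from -0.0027 to 0.05 and Mgat4b from -0.040 to 0.13. The 10 members under 1 RPKM were left out by the filter and were not tested.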
